A study of Homo sapiens and Mus musculus with 13 samples.

Results

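The interleukin genes IL1A, IL1B, IL6, IL11 and IL24, the leukemia inhibitory factor gene LIF and the colony stimulating factor genes CSF1, CSF2 and CSF3 were followed by RNA-Seq in cultured human cells of the breast cancer line MDA-MB-231. These 9 genes are a named selection of interleukin and colony stimulating factor genes, made with earlier results of these data known, and are 9 of the 24523 gene symbols in the human expression table. Other interleukins in the table are counted separately. Each of the 9 had a single row and passed the minimum mean of 0.5 FPKM (fragments per kilobase of transcript, scaled by the size of the library) that 12636 symbols, 51.5%, passed.

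The study asked how TRIM11, a ubiquitin E3 ligase, and KDM5C, a demethylase of histone H3 lysine 4, act on gene expression in breast cancer. Stable lines were made with lentiviral Cas9, a single guide RNA (sgRNA) and puromycin selection, and 1 library was sequenced per line. Control cells carried an sgRNA against GFP, a jellyfish protein foreign to human cells. TRIM11-KD1 and TRIM11-KD2 carried TRIM11 sgRNA 1 and 2, KDM5C-KD1 and KDM5C-KD2 carried KDM5C sgRNA 1 and 2, and the double knockdown lines DKD1 and DKD2 carried TRIM11 sgRNA 1 and 2, each together with KDM5C sgRNA 2. All 7 lines therefore had Cas9, lentivirus and puromycin in common, and the 2 lines of a knockdown differed in the guide used. There was 1 Control library, so ratios to it are given line by line, p-values against it assume that it varies like the knockdown lines, and p-values between knockdowns measure only the spread between lines.

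Interleukin-1 alpha and beta are inflammatory cytokines that signal through the IL1R1 receptor to NF-kB. IL-6, IL-11 and LIF signal through receptors that share the gp130 chain, the product of IL6ST, to STAT3. CSF1, CSF2 and CSF3 direct the growth of macrophages, of granulocytes and macrophages together, and of granulocytes, and their release by breast cancer cells is known to act on myeloid cells. IL24 belongs to the IL-10 family.

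The members were expressed at very different levels. Their mean FPKM over the 7 libraries was 108 for IL6, 83.4 for IL11, 77.9 for CSF1, 26.2 for CSF2, 18.9 for LIF, 11.1 for IL1B, 8.83 for IL24, 1.57 for IL1A and 1.43 for CSF3. IL6, IL11 and CSF1 were above 94.2%, 92.0% and 91.5% of the genes tested, while IL1A and CSF3 were above only 11.9% and 10.8%. The ratio of the highest to the lowest library was 60.8 for CSF3, 26.3 for IL1A, 17.8 for CSF2, 13.9 for IL24, 7.57 for IL1B, 4.71 for IL6 and 3.54 for IL11, but 1.98 for CSF1 and 1.92 for LIF.

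**Figure D1:**
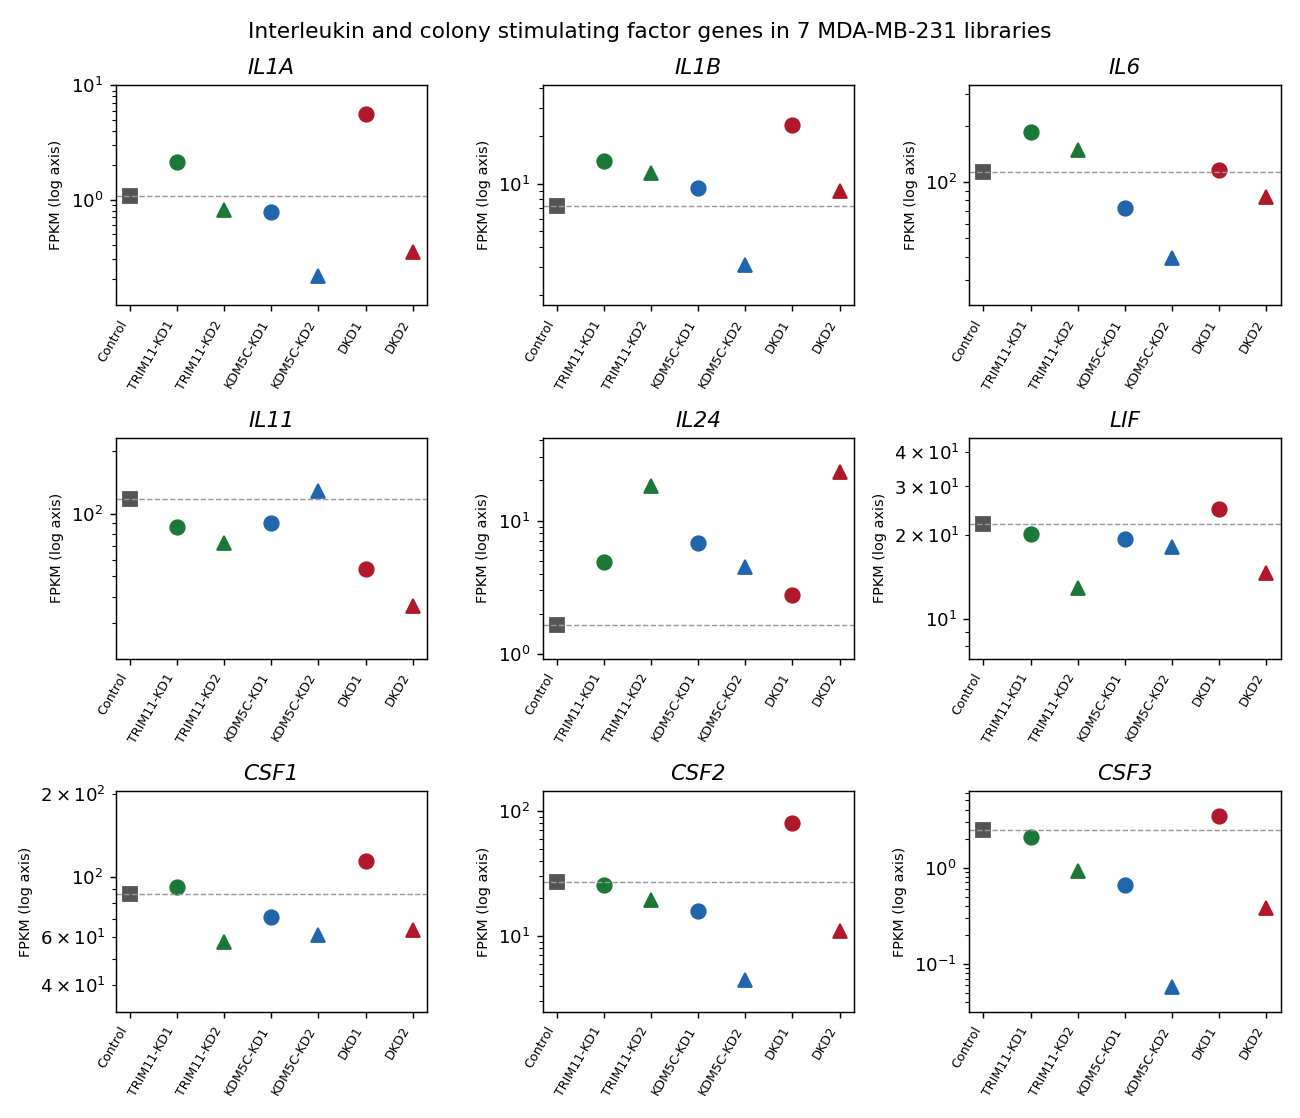
FPKM of each gene (vertical axis, logarithmic, with its own range per panel) in the 7 libraries; the square is Control, circles are line 1, triangles are line 2, and the dashed line is the Control level. DKD1 was the highest library for 6 of the 9 genes, as for 12.9% of all genes tested, and KDM5C-KD2 the lowest for 5, as for 23.4%.

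The RefSeq table of promoters (build GRCh38.p14) held 6 of the 9 genes and no entry for LIF, CSF1 or CSF3. The 160 bases before the start are shown for IL6 and IL11, the genes with the smallest error in the comparisons between knockdowns among those whose lines did not overlap, and for IL24 and CSF2, whose highest and lowest libraries were furthest apart among the genes with a mean above 5 FPKM. They lie at chr7:22727040-22727199 on the plus strand, chr19:55370464-55370623 on the minus strand, chr1:206897283-206897442 on the plus strand and chr5:132073629-132073788 on the plus strand. Capitals mark matches to an AP-1 element (TGANTCA), a cyclic AMP response element (TGACGTCA), a C/EBP element (TTGCNNAA) and the NF-kB consensus, searched on both strands, and to a TATA box (TATAAA), searched on the strand of the gene.
IL6: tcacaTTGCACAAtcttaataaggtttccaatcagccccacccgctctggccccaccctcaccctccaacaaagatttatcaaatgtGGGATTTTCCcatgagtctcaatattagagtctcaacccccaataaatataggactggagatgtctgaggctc
IL11: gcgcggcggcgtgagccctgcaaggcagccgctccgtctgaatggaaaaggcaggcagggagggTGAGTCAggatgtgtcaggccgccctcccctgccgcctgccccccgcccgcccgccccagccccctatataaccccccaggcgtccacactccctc
IL24: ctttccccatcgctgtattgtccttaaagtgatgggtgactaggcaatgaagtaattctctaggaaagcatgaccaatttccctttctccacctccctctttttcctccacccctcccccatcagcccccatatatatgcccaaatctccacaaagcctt
CSF2: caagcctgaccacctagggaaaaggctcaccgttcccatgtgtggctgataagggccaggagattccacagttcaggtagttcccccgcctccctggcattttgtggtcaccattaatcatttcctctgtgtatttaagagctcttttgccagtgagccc
In the 250 bases before the start, the IL6 promoter held a C/EBP match and an NF-kB match that do not overlap, the IL11 promoter held an AP-1 match, and those of IL24 and CSF2 held no match to these 5 motifs. Outside the printed sequences, the IL1B promoter held a C/EBP match. The windows before the 2 annotated starts of IL1A overlap. They share an AP-1 match, 12 to 6 bases before 1 start and 105 to 99 before the other. The latter start had a further AP-1 match at 55 to 49 bases. The former had a TATAAA match 239 to 234 bases before it. Among 35093 RefSeq promoters of the same length, 6.57% held the AP-1 element, 1.65% the cyclic AMP response element, 9.05% the C/EBP element, 9.95% the NF-kB consensus and 6.80% the TATA box. These matches describe letters in the window and do not show binding.

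Some facts of the libraries touch every value below. From the steps between low FPKM values, the libraries were estimated to hold 12700000 to 19500000 fragments, with KDM5C-KD2 the shallowest. KDM5C itself was at 28.4 to 30.3 FPKM in the 3 libraries without a KDM5C guide and at 18.8 to 22.7 in the 4 with it. TRIM11 was at 12.6 FPKM in Control and at 10.6 and 9.38 in TRIM11-KD2 and DKD2. The library labelled TRIM11-KD1 was at 13.4 and that labelled DKD1 at 16.1, so the mRNA level alone does not bear out those labels. The paper checked its knockdown lines by western blot, as protein, which these mRNA values do not measure. The cells had the markers of the line, with VIM between 1038 and 1309 FPKM, PGR listed at 0 in all 7 libraries and ESR1 at no more than 0.0234, although EPCAM and CDH1, 2 of the 4 markers taken as absent from this line, passed the minimum. CDH1 was at 0.615 to 1.98 FPKM. EPCAM was at 4.03 to 6.77 in the 3 libraries without a KDM5C guide and at 10.3 to 12.3 in the 4 with it (KDM5C guide effect 1.08 on the log2 scale, SE 0.14, limma adjusted p = 0.199), and the part of this in the KDM5C-KD and DKD values was not tested. Of 5 leukocyte markers, only CD14 had a mean of at least 0.5. Their summed FPKM was 5.34 and 4.79 in the DKD lines against 1.47 to 2.69 in the other 5, and the part of this in the DKD values was not tested.

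Against Control, a gene was called higher or lower where each line of the knockdown differed from it by a factor of 1.5 or more, both in the same direction. KDM5C-KD had 1 member higher, IL24, where 5.22% of all genes tested were higher, and 3 members lower, IL6, CSF2 and CSF3, where 3.97% were lower. TRIM11-KD had 2 members higher, IL1B and IL24, against 3.25% of all genes, and none lower, against 2.58%. DKD had 1 member higher, IL24, against 5.71% of all genes, and 1 member lower, IL11, against 4.87%. The median log2 ratio of the 9 members was -0.44 in KDM5C-KD, -0.25 in TRIM11-KD and -0.02 in DKD, and that of all genes tested was -0.01, -0.02 and -0.01. These 3 comparisons share the Control library. With 1 line alone, which has a lower bar, KDM5C-KD2 gave 6 called members against 24.5% of all genes in either direction, and KDM5C-KD1 gave 4 against 14.3%. TRIM11-KD2 gave 5 against 18.2% and TRIM11-KD1 gave 4 against 9.86%. DKD2 gave 5 against 23.6% and DKD1 gave 5 against 18.2%.

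A limma fit with Control as a group of 1 library, added after the values were seen, called 0 members in each comparison with Control, where 2 genes of all (0.0158%) passed in each. At an unadjusted p under 0.05 there was 1 member in KDM5C-KD, IL6 at -1.07 (SE 0.38, adjusted p = 0.527), against 9% of all genes. There were 0 members in TRIM11-KD, against 4.35%, and 1 in DKD, IL11 at -1.39 (SE 0.305, adjusted p = 0.435), against 10.1%. The members' calls by ratio therefore say how each line stood to the Control library, and none passed this test.

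**Figure D2:**
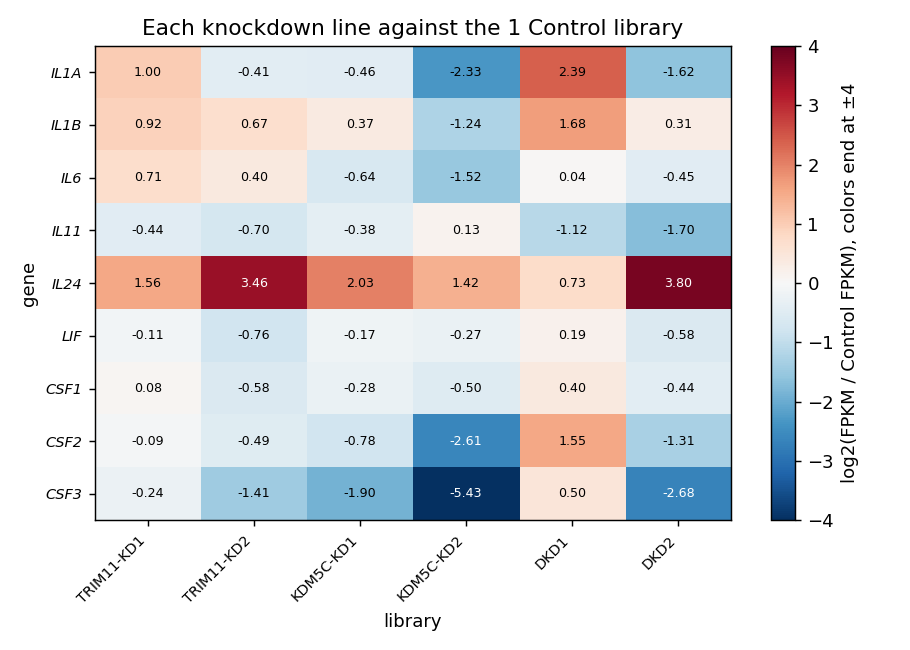
Log2 of the FPKM of each knockdown line (columns) over the 1 Control library, for each gene (rows); red is above and blue below Control. IL24 is above Control in all 6 lines, and IL1A, IL6, LIF, CSF1, CSF2 and CSF3 have opposite signs in DKD1 and DKD2.

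IL6 and IL11 were the 2 members whose knockdowns did not overlap in any pair. Of all genes, 41% to 43.5% did not overlap in a given pair of knockdowns. The share of all genes apart in every pair was not computed, so whether the members stand out in this was not tested. IL6, an inflammatory cytokine that drives the acute phase response, was highest in TRIM11-KD and lowest in KDM5C-KD. Its FPKM was 113 in Control, 185 and 150 in the TRIM11-KD lines 1 and 2, 72.5 and 39.3 in the KDM5C-KD lines, and 116 and 83.1 in the DKD lines. Both TRIM11-KD lines were above Control, both KDM5C-KD lines below it, and the DKD lines lay between the other knockdowns without overlapping either. The ratios to Control were 1.64 and 1.32 in TRIM11-KD, short of a call in the second line, 0.641 and 0.347 in KDM5C-KD, and 1.03 and 0.735 in DKD. On the log2(FPKM + 1) scale, KDM5C-KD minus TRIM11-KD was -1.62 (SE 0.31), KDM5C-KD minus DKD was -0.87 (SE 0.31) and DKD minus TRIM11-KD was -0.75 (SE 0.31). None passed after adjustment over all genes (limma, adjusted p = 0.494, 0.394 and 0.707, between 0.114 and 1 over the alternatives). The span of IL6 (chr7:22765503-22771621 of hg19) overlaps those of IL6-AS1 and STEAP1B on the other strand. Whether exons overlap was not checked. These libraries carry no strand, so any reads from shared bases cannot be told apart by strand.

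IL11, a gp130 cytokine linked to bone metastasis of breast cancer, was lowest in the double knockdown. Its FPKM was 117 in Control, 86.3 and 72.0 in the TRIM11-KD lines 1 and 2, 90.1 and 128 in the KDM5C-KD lines, and 54.1 and 36.2 in the DKD lines. Every library with a TRIM11 guide was below every library without one, a separation that 8.75% of all genes showed in either direction and that no other member showed. The ratios to Control were 0.461 and 0.309 in DKD, which was called lower, and 0.736 and 0.614 in TRIM11-KD. KDM5C-KD minus DKD was 1.26 (SE 0.25), DKD minus TRIM11-KD -0.82 (SE 0.25) and KDM5C-KD minus TRIM11-KD 0.44 (SE 0.25), with limma adjusted p = 0.379, 0.702 and 0.560 (between 0.135 and 1 over the alternatives). IL11 lies at chr19:55875750-55881831 of hg19 and overlaps no other annotated gene.

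LIF, which keeps mouse embryonic stem cells undifferentiated and shares gp130 with IL-6 and IL-11, had the smallest ratio of highest to lowest library of the 9 members. Its FPKM was 21.9 in Control, 20.3 and 12.9 in the TRIM11-KD lines 1 and 2, 19.5 and 18.1 in the KDM5C-KD lines, and 24.9 and 14.6 in the DKD lines. The 2 lowest libraries were those with TRIM11 sgRNA 2, and the knockdowns overlapped. The differences between knockdowns were between -0.03 and 0.22 on the log2 scale with an SE of 0.29. Within each TRIM11 guide LIF was higher in DKD than in TRIM11-KD, by 1.23 times with guide 1 and 1.13 times with guide 2, and CSF1 was the other member higher within both, as 36.1% of all genes were, while IL6 and IL11 were lower within both, as 32% were. With the guide as a block in those 4 libraries, DKD minus TRIM11-KD for LIF was 0.22 (SE 0.09, limma adjusted p = 0.282). The span of LIF (chr22:30636442-30642748 of hg19) overlaps those of LIF-AS1 and LIF-AS2 on the other strand, and overlap of exons was not checked.

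The lines of KDM5C-KD and of DKD lay far apart for the interleukin-1 genes, which neighbor each other on chromosome 2 (IL1A at chr2:113531502-113542070 and IL1B at chr2:113587328-113594393 of hg19). The FPKM of IL1B was 7.29 in Control, 13.8 and 11.6 in the TRIM11-KD lines 1 and 2, 9.44 and 3.08 in the KDM5C-KD lines, and 23.3 and 9.01 in the DKD lines. Both TRIM11-KD lines were above Control, by 1.90 and 1.60 times, and the KDM5C-KD lines lay on either side of it. IL1A was at 1.07 in Control, 2.14 and 0.808 in the TRIM11-KD lines 1 and 2, 0.779 and 0.213 in the KDM5C-KD lines, and 5.60 and 0.349 in the DKD lines. The highest and lowest values of both genes were in DKD1 and KDM5C-KD2, which carried the same KDM5C guide. The largest difference of IL1B was KDM5C-KD minus DKD, at -1.26 (SE 0.55, limma adjusted p = 0.455), and that of IL1A was the same contrast at -1.02 (SE 0.73, adjusted p = 0.608). Over the alternatives the adjusted p lay between 0.211 and 0.937 for both. At the estimated depth IL1A had about 5 fragments in KDM5C-KD2 and 12 in DKD2, so its low values are imprecise.

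Among the colony stimulating factors, CSF2 (chr5:131409482-131411863 of hg19) and CSF3 (chr17:38171614-38174066) ordered the 7 libraries identically. The FPKM of CSF2 was 27.2 in Control, 25.6 and 19.4 in the TRIM11-KD lines 1 and 2, 15.9 and 4.46 in the KDM5C-KD lines, and 79.7 and 10.98 in the DKD lines. That of CSF3 was 2.45 in Control, 2.07 and 0.922 in the TRIM11-KD lines 1 and 2, 0.656 and 0.0569 in the KDM5C-KD lines, and 3.46 and 0.381 in the DKD lines. Both were called lower in KDM5C-KD, with ratios to Control of 0.584 and 0.164 for CSF2 and of 0.268 and 0.0232 for CSF3, whereas the DKD lines lay far apart, at 2.92 and 0.403 for CSF2 and at 1.41 and 0.156 for CSF3. The value of CSF3 in KDM5C-KD2 was worth about 1 fragment against 71 in Control at the estimated depth. A 95% counting interval for its ratio to Control ran from 0.000481 to 0.111. It was computed from these rounded estimates, not from observed counts, and is approximate. KDM5C-KD minus DKD was -1.69 (SE 0.93) for CSF2 and -0.91 (SE 0.58) for CSF3, with limma adjusted p = 0.517 and 0.568 (between 0.246 and 0.972 over the alternatives). The fold change of CSF3 is understated on the log2(FPKM + 1) scale, since its levels are low.

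CSF1, at chr1:110452864-110473614 of hg19, was among the 3 members with the highest FPKM in every library. Its FPKM was 86.2 in Control, 91.5 and 57.5 in the TRIM11-KD lines 1 and 2, 71.1 and 61.0 in the KDM5C-KD lines, and 114 and 63.8 in the DKD lines. No knockdown had both lines past 1.5-fold, and the differences between knockdowns were between -0.37 and 0.23 with an SE of 0.32. Within each TRIM11 guide CSF1 was 1.25 and 1.11 times higher in DKD than in TRIM11-KD, and with the guide as a block the difference was 0.23 (SE 0.08, limma adjusted p = 0.252).

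IL24 was called higher than Control in every knockdown. Its FPKM was 1.66 in Control, 4.90 and 18.2 in the TRIM11-KD lines 1 and 2, 6.77 and 4.45 in the KDM5C-KD lines, and 2.75 and 23.1 in the DKD lines. All 6 lines were above Control, by 1.66 to 13.9 times, and both libraries with TRIM11 sgRNA 2 stood above the rest. The difference between knockdowns was at most 0.71 on the log2 scale in size (KDM5C-KD minus TRIM11-KD, -0.71, SE 0.93, limma adjusted p = 0.781, between 0.624 and 1 over the alternatives). The 3 calls rest on the same Control value, the lowest of the 7, as Control was for 13.9% of all genes tested. The share of all genes called higher in all 3 knockdowns was not computed, so whether IL24 stands out in this was not tested. With a pseudocount of 1 in the ratio the DKD call was lost. The span of IL24 (chr1:207070788-207077484 of hg19) overlaps that of FCMR on the other strand, and overlap of exons was not checked.

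Between knockdowns, limma called no member and none of the 12636 genes in any of the 3 contrasts (0% each at an adjusted p under 0.05). At an unadjusted p under 0.05 there were 2 of 9 members for KDM5C-KD minus DKD, IL6 and IL11, against 1473 genes or 11.7%. There was 1 member for KDM5C-KD minus TRIM11-KD, IL6, against 1241 genes or 9.82%, and 1 for DKD minus TRIM11-KD, IL11, against 888 genes or 7.03%. The libraries of 2 knockdowns did not overlap for 2 members in KDM5C-KD against DKD, where 43.3% of all genes did not, for 6 members in KDM5C-KD against TRIM11-KD, where 43.5% did not, and for 2 members in DKD against TRIM11-KD, where 41.0% did not. In the contrast with 6 members, IL1A, IL1B, IL6, CSF2 and CSF3 were lower and IL11 higher in KDM5C-KD.

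**Figure D3:**
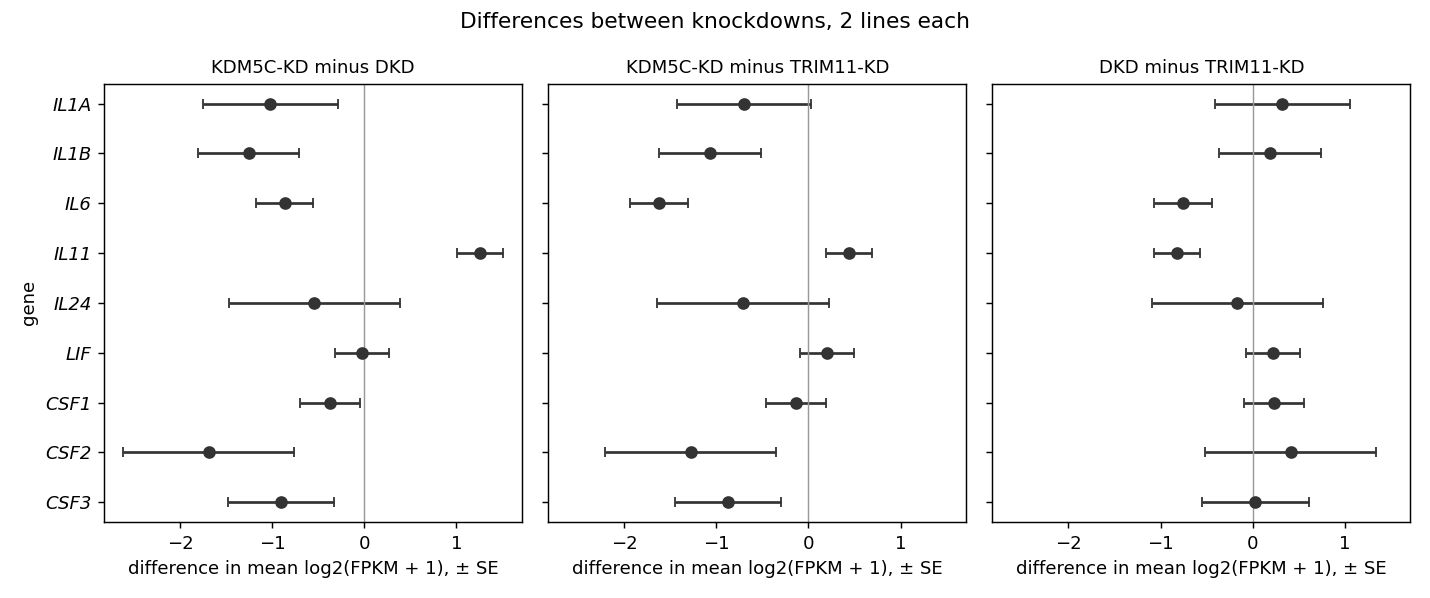
Difference in mean log2(FPKM + 1) between knockdowns of 2 lines each (points) with its standard error from limma (bars), for each gene. IL6 and IL11 have the narrowest bars beside differences away from 0, and CSF2 and IL24 the widest.

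The layout also allowed libraries with a guide to be set against those without it. For a KDM5C guide, IL6 was -0.88 (SE 0.23, limma adjusted p = 0.383) and IL11 -0.54 (SE 0.22, adjusted p = 0.435), the 2 members under an unadjusted p of 0.05, as 11.1% of all genes were. For a TRIM11 guide, IL11 was -0.98 (SE 0.22), IL6 0.74 (SE 0.23) and IL1B 1.04 (SE 0.40), with adjusted p = 0.448, 0.448 and 0.453, and these 3 members were under an unadjusted p of 0.05, as 10.7% of all genes were. No member passed after adjustment, where 1 gene of all (0.00791%) passed for the KDM5C guide and none (0%) for the TRIM11 guide. No member was separated by a KDM5C guide, where 10.7% of all genes were. The effect of a KDM5C guide with a TRIM11 guide, less its effect without, ran from -1.46 (SE 1.47) for IL24 to 1.97 (SE 1.47) for CSF2. No member had an adjusted p under 0.883 in this interaction, where 2 genes of all (0.0158%) passed, or an unadjusted p under 0.05, where 5.49% of all genes did.

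The spread between the lines of a knockdown was wide for these genes. The lines differed by at least 1.5 times for 5 of 9 members in TRIM11-KD, 6 in KDM5C-KD and 7 in DKD, where 13.8%, 17.3% and 16.8% of all genes did. The FPKM of DKD2 over that of DKD1 was 0.0623 for IL1A, 0.110 for CSF3, 0.138 for CSF2 and 0.387 for IL1B, but 8.38 for IL24. The same comparison in TRIM11-KD gave 0.377, 0.445, 0.758, 0.841 and 3.72. Comparing TRIM11 sgRNA 2 with sgRNA 1, a contrast chosen after the values were seen, IL24 was at least 1.5 times higher in both TRIM11-KD and DKD, as 2.79% of all genes were, and IL1A, LIF, CSF1 and CSF3 were at least 1.5 times lower in both, as 4.42% were. By their labels DKD1 and DKD2 differed in the TRIM11 guide, and each guide was used in 1 line per knockdown, so guide and line cannot be told apart.

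**Figure D4:**
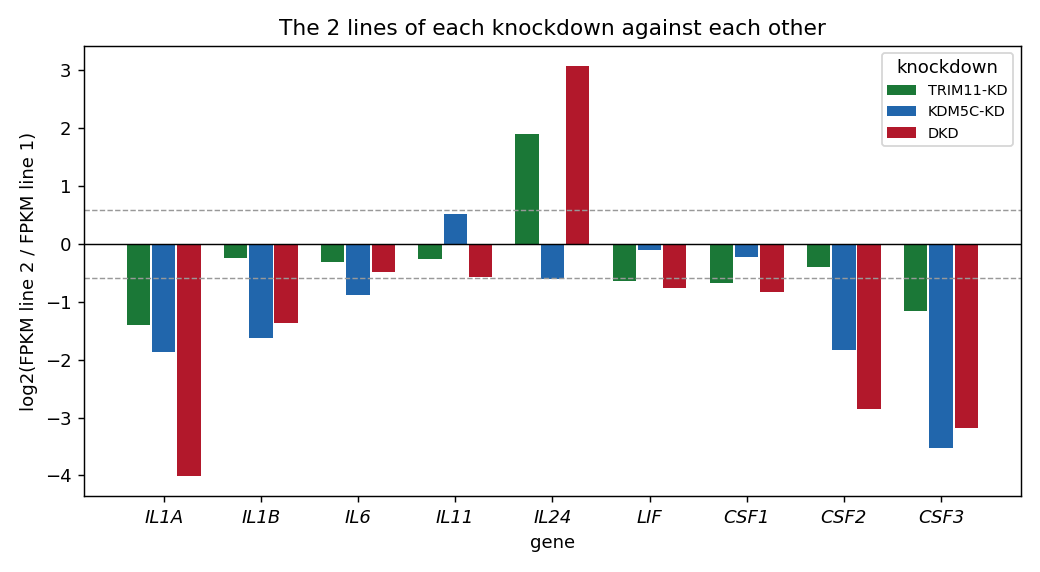
Log2 of the FPKM of line 2 over line 1 of each knockdown (bars, from 0), with dashed lines at 1.5-fold. IL24 is the only gene whose TRIM11-KD and DKD bars both point up, and the DKD bar of IL1A reaches furthest down, followed by the bars of CSF3 in KDM5C-KD and in DKD.

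The members' patterns over the 7 libraries ranged from alike to opposite. On log2(FPKM + 1), Pearson's r was 0.94 between CSF2 and CSF3, 0.93 between IL1A and CSF2 and 0.88 between IL1A and CSF3, and 0.96, 0.95 and 0.92 after the 2 libraries farthest from the median of the first gene were left out. LIF and CSF1 had r = 0.88, and 0.94 without TRIM11-KD2 and DKD2. IL1B and CSF2 had r = 0.90 but 0.15 without KDM5C-KD2 and DKD1, so that relation rests on those libraries. IL1A and CSF1 had r = 0.91, and 0.61 without TRIM11-KD1 and DKD1. IL24 and LIF had r = -0.90, and -0.63 without TRIM11-KD2 and DKD2. These are descriptions over libraries that share guides, taken from 36 pairs.
Over all genes with a mean of at least 5 FPKM, the gene with the pattern most like IL6 was CFB (r = 0.988), that for IL11 was PTPN11 (r = 0.987), that for IL24 was KCNAB2 (r = 0.991), with IL7R next (r = 0.984), and that for LIF was ZNHIT6 (r = 0.997). The chemokine gene CXCL1 (r = 0.965) was among the 3 genes most like IL1A, after RCAN1 (r = 0.989) and CARD8 (r = 0.978). The closest to IL1B, CSF1, CSF2 and CSF3 were KIAA1147 (r = 0.996), SARNP (r = 0.961), FAM208B (r = 0.994) and CAMSAP2 (r = 0.982). Between 28 and 113 of the 8791 or 8792 genes compared reached an r of 0.9 with a given member.

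The receptors of these cytokines were expressed unevenly in the same cells. Of 16 receptor genes, 8 passed the minimum. OSMR, IL6ST and IL1RAP led, with mean FPKM of 60.6, 42.8 and 10.1, while the receptor genes of CSF2 and CSF3 and the IL-20 receptor genes did not pass, and CSF2RA was listed at 0 in all 7 libraries. IL6R, the chain that binds IL-6, was the 1 receptor called, and was higher in all 3 knockdowns. Of all genes, 5.22% were higher in KDM5C-KD, 3.25% in TRIM11-KD and 5.71% in DKD. The 3 calls of IL6R rest on the same low Control value, the lowest of the 7 libraries, as Control was for 13.9% of all genes tested. The share of all genes called higher in all 3 was not computed. Its FPKM was 0.502 in Control, 1.17 and 1.03 in the TRIM11-KD lines 1 and 2, 2.11 and 3.21 in the KDM5C-KD lines, and 0.869 and 1.52 in the DKD lines. KDM5C-KD, where IL6 was lowest, had the highest IL6R, and KDM5C-KD minus DKD was 0.74 (SE 0.24, limma adjusted p = 0.388).

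Of 26 other interleukins and related cytokines, 10 passed the minimum. In KDM5C-KD 2 were higher and 0 lower, where 5.22% and 3.97% of all genes tested were. In TRIM11-KD 2 were higher and 0 lower, against 3.25% and 2.58%, and in DKD 1 and 0, against 5.71% and 4.87%. KITLG, the stem cell factor, was called higher in all 3, at 1.26 FPKM in Control and 2.36 to 6.02 in the 6 lines. Its 3 calls rest on the same Control value, the lowest of all libraries, as Control was for 13.9% of all genes tested. How many of all genes were called higher in all 3 was not computed.

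Signalling genes were read against the shares of all genes given above. Of 14 signal transducers JAK2, a kinase below the CSF2 and IL-6 receptors, was the 1 called, lower in KDM5C-KD and DKD, where 3.97% and 4.87% of all genes were lower, at 0.812 to 1.09 FPKM in those 4 lines and 1.66 in Control. Among 9 feedback inhibitors, 0 were called in KDM5C-KD, where 5.22% of all genes were higher and 3.97% lower. In TRIM11-KD 1 was higher and 0 lower, against 3.25% and 2.58%, and in DKD 1 and 1, against 5.71% and 4.87%. SOCS1, which blocks JAK kinases, was higher in TRIM11-KD and DKD, at 1.19 to 4.76 FPKM against 0.523 in Control, and at 2.02 and 0.143 in the KDM5C-KD lines 1 and 2, on either side of Control. Of 18 transcription factor genes, 1 was higher in KDM5C-KD, 1 in TRIM11-KD and 3 in DKD, where 5.22%, 3.25% and 5.71% of all genes were, and none was lower. CEBPD, a C/EBP factor of acute inflammation, was higher in TRIM11-KD and DKD, at 20.4 to 29.9 FPKM against 10.4 in Control, and NFATC1 was higher in KDM5C-KD and DKD. None of 7 genes for proteins that bind mRNA, among them binders of the AU-rich stretches of many cytokine mRNAs, was called.

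Of 6 genes for processing and release of interleukin-1, 1 was higher and 1 lower in KDM5C-KD, against 5.22% and 3.97% of all genes. In TRIM11-KD 0 were higher and 1 lower, against 3.25% and 2.58%, and in DKD 0 and 2, against 5.71% and 4.87%. CASP1, whose product cleaves the IL-1 beta precursor, was called in opposite directions. Its FPKM was 1.93 in Control, 2.20 and 1.22 in the TRIM11-KD lines 1 and 2, 3.79 and 7.20 in the KDM5C-KD lines, and 1.01 and 0.304 in the DKD lines. The KDM5C-KD lines were above, and the DKD lines below, every other library, and KDM5C-KD minus DKD was 1.95 (SE 0.36, limma adjusted p = 0.379), which did not pass.

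**Figure D5:**
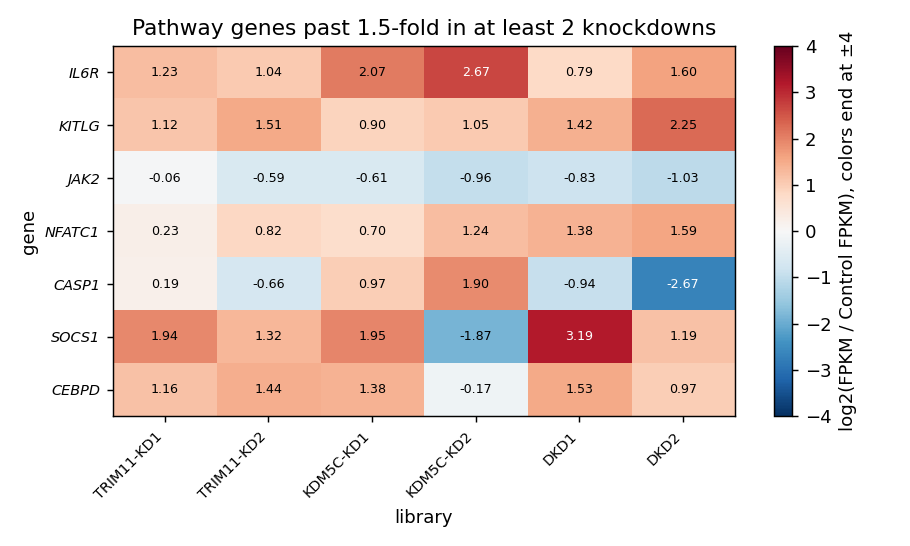
Log2 of the FPKM of each line over the 1 Control library for the 7 receptor, cytokine, signalling and processing genes with a mean of at least 1 FPKM that were called in at least 2 knockdowns. IL6R and KITLG are above Control in all 6 lines, and CASP1 is above it in the KDM5C-KD lines and below it in the DKD lines.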

How the data were processed

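RNA-Seq of 7 MDA-MB-231 lines was used. Libraries were made from poly(A) RNA without strand and sequenced from both ends. The authors checked reads with FastQC, trimmed them with Cutadapt, mapped them to hg19 with HISAT2, computed levels with Cufflinks and deposited 1 FPKM value per gene and library, without pooling. The submitters' processing notes also name Bowtie 0.12.2. FPKM is relative, so a change in total RNA cannot be seen, and the summed FPKM per library was 494183 to 514105. The 6 mouse tumors and the ChIP-Seq data were not used here.

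Of 26006 rows, 27 whose symbol had become a date were dropped, and the row with the highest mean was kept per symbol. Fragments per library were estimated from the steps of low FPKM values and 81 single-transcript genes, and intervals cover counting error only. Ratios to Control used no pseudocount. Contrasts used limma 3.58.1 (lmFit, eBayes with trend) in R 4.3.3 on log2(FPKM + 1), with Benjamini-Hochberg adjustment over all genes, and the script was tested on simulated data. Pairwise contrasts were fitted on the 6 knockdown libraries, guide effects on all 7 with both guides as terms, and the interaction on 4 group means, as were contrasts with Control, which were added after the data were seen. Nothing in the labels says that lines were grown separately in time or batch. Figures used matplotlib 3.10.9 and other steps Python 3.11.15, pandas 2.3.3, numpy 2.4.6 and scipy 1.17.1. Gene positions are from GENCODE on hg19.

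The 9 genes and all lists were chosen with earlier results of these data known. Named were the 9 genes, the targeted genes, list genes with a mean of at least 1 FPKM called against Control in at least 2 knockdowns, and the genes most correlated with each member. Receptors and markers quoted outside this rule were chosen after their values were seen. Alternatives were pseudocounts of 0.1 and 1, a stricter fold of 2, averaging the lines of a knockdown, other filters, scaling by median ratios or to 1 total, no trend, a replicate block, the Control in the pairwise fit, only the groups compared, and each replicate left out.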

Additional observations from a re-analysis of the deposited data

How the results depend on the processing

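Counts of called members were within 1.5 times the reported count, or equal at 0, in 103 of 115 alternatives. Most of the 115 were alternatives of limma contrasts, which called 0 members in every setting. Their agreement at 0 therefore says nothing about how stable the calls against Control were. All 12 counts that moved were counts against Control. Against Control, a fold of 2 left 2 members in KDM5C-KD (3.7% of all genes), 1 in TRIM11-KD (1.67%) and 1 in DKD (4.33%), a pseudocount of 1 left 1 in DKD (6.11%), the mean of both lines gave 5 in DKD (17.9%), and limma with Control as a group of 1 library, added after the data were seen, called 0 in each. With a replicate left out, the count was 4 to 5 in TRIM11-KD and 5 in DKD with either line, since a call then needs 1 line. Of single members, 40 differences between knockdowns, guide effects or interactions turned sign, and none of those values had passed a test. Ratios to Control of uncalled members are not in this count, and some of them also turned. In DKD their mean log2 ran from -1.62 to 2.39 for IL1A, -1.31 to 1.55 for CSF2 and -2.68 to 0.50 for CSF3. Those of IL6, LIF and CSF1 in DKD, IL1B and IL11 in KDM5C-KD and IL1A and CSF1 in TRIM11-KD also turned sign. Leaving out each replicate, KDM5C-KD minus DKD ran from -2.17 to 0.12 for IL1A, from -1.89 to 0.79 for IL24, from -0.39 to 0.34 for LIF and from -0.78 to 0.05 for CSF1. KDM5C-KD minus TRIM11-KD ran from -1.56 to 0.14 for IL24, from -0.11 to 0.50 for LIF and from -0.47 to 0.19 for CSF1. DKD minus TRIM11-KD ran from -0.82 to 1.47 for IL1A, from -0.45 to 0.83 for IL1B, from -1.51 to 1.18 for IL24, from -0.14 to 0.59 for LIF, from -0.18 to 0.65 for CSF1, from -0.96 to 1.79 for CSF2 and from -0.81 to 0.88 for CSF3, which was -0.19 with a pseudocount of 0.1. With a KDM5C guide the ranges were -0.66 to 0.49 for IL1A, -0.40 to 0.24 for IL1B, -0.11 to 1.23 for IL24, -0.17 to 0.19 for LIF, -0.28 to 0.13 for CSF1 and -1.26 to 0.12 for CSF2. With a TRIM11 guide they were -0.15 to 0.27 for CSF1 and -0.22 to 0.62 for CSF3, and for the interaction -0.33 to 1.97 for IL1A, -0.14 to 1.21 for IL1B and -0.12 to 0.75 for IL6. A group left with 1 library is assumed to vary like the others. The cause of these turns was not tested. The differences of IL6 and IL11 between knockdowns, and their effects of either guide, kept their sign in all alternatives.

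Line numbers marked a shared guide for TRIM11 only, and the correlation of deviations between same-numbered lines was 0.0880 for TRIM11-KD and KDM5C-KD, 0.371 for TRIM11-KD and DKD and 0.273 for KDM5C-KD and DKD, so the numbers were not taken as pairs over the 3 knockdowns. With the replicate block, 0 members and 0 genes were called in the 3 contrasts, and 2163, 1975 and 1538 genes had an unadjusted p under 0.05, against 1473, 1241 and 888 without it. With the TRIM11 guide as the replicate block in TRIM11-KD and DKD alone, added after the data were seen, 0 members and 0 genes were called and 2454 genes had an unadjusted p under 0.05, with IL6 and IL11 at an adjusted p of 0.209 each (limma).

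Over all genes, leaving out a library gave 0 to 17 calls in KDM5C-KD minus DKD, 1 to 10 in KDM5C-KD minus TRIM11-KD, 0 to 7 in DKD minus TRIM11-KD and 3 to 10 in the interaction. Low depth limits IL1A and CSF3, above all in KDM5C-KD2, and 1 Control library and 2 lines per knockdown limit every comparison.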
